A study of Mus musculus with 6 samples.

Results

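Inhibitory receptors and ligands are 10 genes chosen by symbol among the 24047 rows of a count table: the receptor genes Pdcd1, Ctla4, Lag3, Havcr2, Tigit, Btla and Cd160, the ligand genes Cd274 and Cd200, and Nt5e, which encodes a surface enzyme. All 10 had a row, and 9 of them were among the 10454 genes that passed the filter on low counts, while Cd160 did not. RNA was measured in 6 mouse libraries, 3 labelled Srsf1-cKO and 3 labelled WT. The label of the first group is Srsf1-flox/flox dLck.Cre, that is, floxed alleles of the splicing factor gene Srsf1 with a Cre transgene driven by the distal Lck promoter, which is active in T cells, so that other cells keep the gene. The labels do not say whether WT animals carried floxed alleles or the Cre. All animals were 7 weeks old and of a strain labelled B6.129, with 3 mice per genotype by the study's design text. Naive CD4 T cells were enriched from spleen with a kit for CD4+CD62L+ cells, stimulated for 72 h through CD3 (antibody at 0.5 µg/mL) together with CD28 (antibody at 1 µg/mL), and given phorbol myristate acetate (PMA, 100 ng/mL) with ionomycin (1 µM) for the last 4 h, per the labels' protocols.

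Inhibitory receptors are induced when a T cell is activated and then dampen signalling from the T cell receptor or from the costimulatory receptor CD28. PD-1 (Pdcd1) binds PD-L1 (Cd274) and PD-L2, CTLA-4 competes with CD28 for CD80 and CD86, LAG-3 binds MHC class II, TIGIT competes with CD226 for the poliovirus receptor, and BTLA and CD160 both bind the TNF receptor family protein HVEM. TIM-3 (Havcr2) has several proposed ligands, among them galectin-9, CEACAM1 and HMGB1, CD200 acts on a receptor of myeloid cells, and CD73 (Nt5e) makes adenosine, which inhibits T cells through a receptor encoded by Adora2a. PMA and ionomycin act below the T cell receptor and switch on the transcription factors AP-1 and NFAT, so the levels here are those of restimulated cells in culture.

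The libraries held between 7781283 and 10184268 gene counts. Levels are given in CPM, counts scaled to the library's total after TMM adjustment. Srsf1, the targeted gene, stood at 523, 548 and 471 CPM in the libraries labelled Srsf1-cKO and at 540, 458 and 486 CPM in WT. Its log2 fold change was 0.06 (SE 0.12, edgeR adjusted p = 0.78). Reads from exons that remain would still be counted, and the sources used here do not name the floxed exons. Since this level shows no loss of Srsf1 RNA, the first group is called labelled Srsf1-cKO throughout, and each direction follows the label. The markers of CD4 T cells all reached 1 CPM (7 genes with a row). Of these Cd3g rose and Zbtb7b fell, which held in 1 and 2 of 6 edgeR fits that left out a library (adjusted p at most 0.184 and 0.132), and Zbtb7b did not pass on FPKM (limma adjusted p = 0.0663). Cd4 itself stood at 359, 355 and 455 CPM in the libraries labelled Srsf1-cKO and at 436, 526 and 432 CPM in WT. In bulk RNA, fewer cells of a type and less RNA per cell cannot be told apart.

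Upstream sequences are shown for Btla, the gene that rose, and for Tigit, Pdcd1 and Havcr2, whose windows hold the letters of a factor that PMA and ionomycin engage. They come from RefSeq on GRCm38.p6, run 5′ to 3′ on the gene's strand and end just before the transcript start, or in Btla before an annotated exon. Capitals mark TGANTCA, the AP-1 letters, and GGAAA, the core letters of NFAT, each searched on both strands; the 2 motifs overlap nowhere in these windows. Positions are chr16:45224087-45224314 (plus strand) for Btla, chr16:43664185-43664434 (minus strand) for Tigit, chr1:94052554-94052803 (minus strand) for Pdcd1 and chr11:46454681-46454930 (plus strand) for Havcr2.
Btla: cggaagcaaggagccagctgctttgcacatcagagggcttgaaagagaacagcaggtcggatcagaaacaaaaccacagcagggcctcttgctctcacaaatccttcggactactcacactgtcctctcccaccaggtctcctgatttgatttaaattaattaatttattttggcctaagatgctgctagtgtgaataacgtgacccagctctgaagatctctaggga
Tigit: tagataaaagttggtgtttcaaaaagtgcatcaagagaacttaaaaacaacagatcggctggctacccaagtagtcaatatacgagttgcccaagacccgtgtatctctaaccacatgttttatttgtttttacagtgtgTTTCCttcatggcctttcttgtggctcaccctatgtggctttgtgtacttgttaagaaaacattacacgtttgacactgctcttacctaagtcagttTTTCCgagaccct
Pdcd1: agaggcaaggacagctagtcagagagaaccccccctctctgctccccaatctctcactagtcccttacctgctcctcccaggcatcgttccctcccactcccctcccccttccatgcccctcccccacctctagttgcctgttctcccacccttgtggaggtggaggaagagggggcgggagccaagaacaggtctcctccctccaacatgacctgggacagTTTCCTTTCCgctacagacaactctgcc
Havcr2: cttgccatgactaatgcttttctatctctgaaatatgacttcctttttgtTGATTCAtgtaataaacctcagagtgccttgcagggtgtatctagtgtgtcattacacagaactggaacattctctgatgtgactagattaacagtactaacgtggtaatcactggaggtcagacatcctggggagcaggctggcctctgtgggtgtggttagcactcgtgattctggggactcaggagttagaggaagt
Windows were found for 9 of the 10 genes, with Lag3 as the missing entry and Cd160 with 2 starts. The NFAT letters stood in the 250 bases upstream of Cd160 (1 of its starts), Cd274, Ctla4, Pdcd1 and Tigit, against 55.6% of 32851 such windows, and the AP-1 letters in Havcr2 alone of these genes, against 6.75%. Among the genes that passed the test below, Cd274 has the NFAT letters and Btla and Nt5e have neither; a match describes letters only.

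These genes did not move in 1 direction between the genotypes. Btla rose by a fold of 1.70, while Lag3, Nt5e and Cd274 fell to folds of 0.424, 0.447 and 0.658 of the WT mean. The other 5 tested genes, Havcr2, Tigit, Pdcd1, Ctla4 and Cd200, had log2 fold changes above 0 and did not pass the test. Counts were tested with edgeR's quasi-likelihood test with Benjamini-Hochberg adjustment over all tested genes, and rose or fell is written only where the adjusted p was under 0.05. Of the 9 tested genes 1 rose and 3 fell, where 8.9% of all tested genes rose and 9.5% fell (18.4% in either direction). In 4 of the 9 the 2 groups had no overlap in CPM, as in 39.4% of all tested genes, and the median log2 fold change was 0.22 for the 9 and 0.01 for all tested genes. With 3 libraries a group, the smallest p of an exact permutation test of a single gene is 0.1, and nothing in the labels says that libraries of a group are more than separate samples of their genotype.

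**Figure D1:**
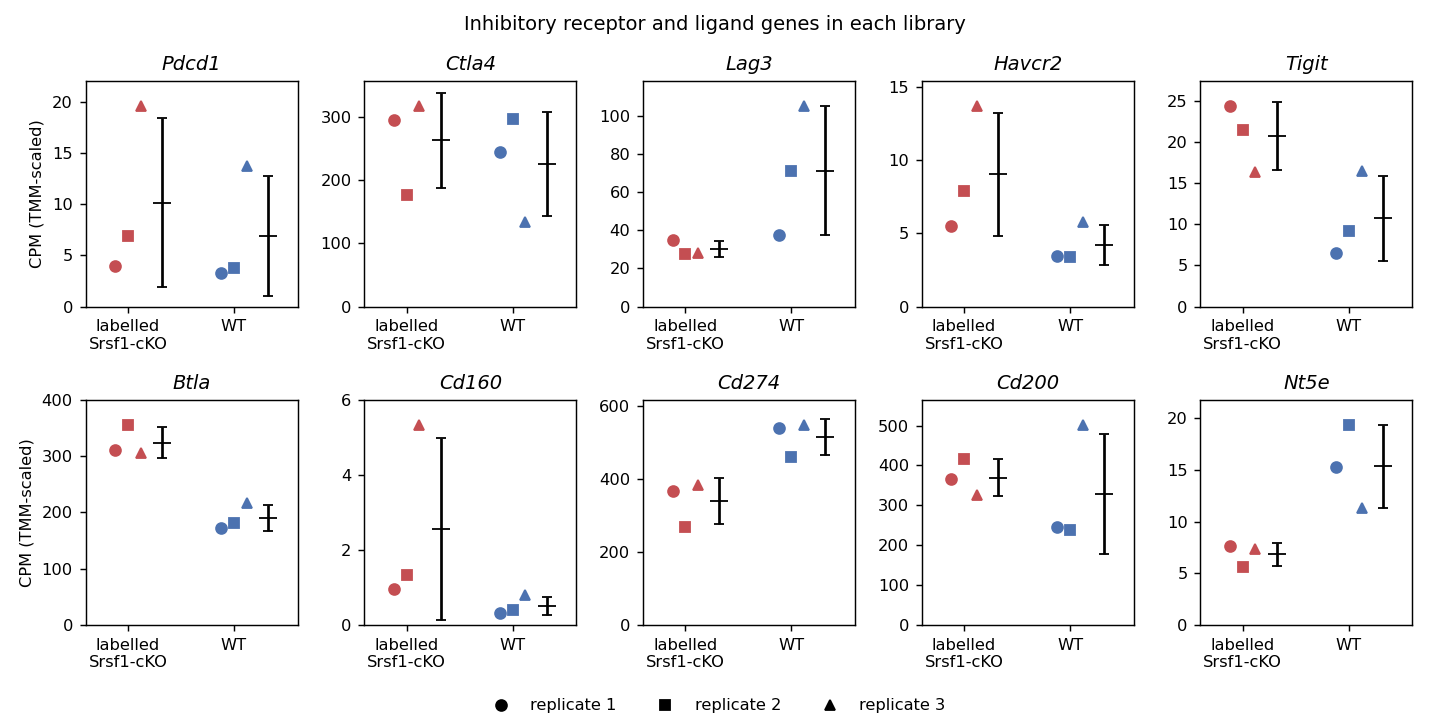
Level of each gene (CPM on a linear axis from 0) in every library, with the mean and SD of 3 libraries as a black bar beside the points. Groups are apart for Btla and Cd160, higher in the libraries labelled Srsf1-cKO, and for Lag3, Cd274 and Nt5e, lower there.

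Btla encodes a receptor of the immunoglobulin superfamily that recruits phosphatases when bound by HVEM. It stood at 310, 356 and 305 CPM in the libraries labelled Srsf1-cKO, against 173, 181 and 217 CPM in WT. All 3 libraries labelled Srsf1-cKO were above the highest WT library, and libraries of a group differed by a ratio of at most 1.17 in the libraries labelled Srsf1-cKO and 1.25 in WT. In edgeR the log2 fold change was 0.77 (SE 0.14, 95% interval 0.46 to 1.07, edgeR adjusted p = 0.0105). On the FPKM table, which scales by transcript length, limma gave 0.87 with adjusted p = 0.0106. The call did not hold without Srsf1-cKO replicate 2 (log2 fold change 0.70, adjusted p = 0.0601) or without WT replicate 1 (0.69, adjusted p = 0.061). Over all genes only 234 and 195 passed in these fits, against 1923 with all libraries.

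B cells carry BTLA as well, and markers of B cells were higher in the same libraries. The summed level of the 8 B cell markers was 28.3, 42.9 and 11.1 CPM in the libraries labelled Srsf1-cKO, against 6.41, 10.02 and 1.32 CPM in WT. Of these markers 6 were tested, and Cd79a and Fcer2a rose. Each passed in only 2 of 6 edgeR fits that left out a library (adjusted p at most 0.101 for Cd79a and 0.136 for Fcer2a). Fcer2a did not pass in DESeq2 (adjusted p = 0.0905) or limma-voom (0.13). With 1.32 CPM for all 8 markers in WT replicate 3, these 2 cannot both have passed the filter on low counts through WT libraries alone. This limits both calls. The mean of Btla was higher by 133 CPM, and in Srsf1-cKO replicate 3, where the B cell sum was 11.1 CPM, Btla stood at 305 CPM. The part of B cells in the Btla level was not tested.

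Cd160, a lipid-anchored receptor that shares HVEM with BTLA, was the scarcest of the 10 genes. It had 9, 12 and 57 counts in the libraries labelled Srsf1-cKO (0.972, 1.34 and 5.35 CPM), against 3, 3 and 6 counts in WT (0.332, 0.390 and 0.792 CPM). The groups did not overlap, but most of the distance came from Srsf1-cKO replicate 3, and at this depth the exact two-sided permutation test gave p = 0.1, the smallest it can give. It passed no filter in the main test; with a filter of only 1 count its log2 fold change was 2.33 (edgeR adjusted p = 0.0333). It passed the usual filter in 4 of the fits that left out a library, there through the libraries labelled Srsf1-cKO in which it was high, so no p is given from those. Pdzk1 is the next gene after Cd160 in RefSeq's order and did not pass the filter on low counts. The sources used here do not say whether counting used the strand.

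Tnfrsf14, the gene of HVEM, stood at 7.35, 9.38 and 10.5 CPM in the libraries labelled Srsf1-cKO and at 7.96, 10.3 and 8.05 CPM in WT (log2 fold change 0.05, SE 0.23, 95% interval -0.46 to 0.57, edgeR adjusted p = 0.887). Per length, Btla thus exceeded its ligand's gene by a ratio of FPKM of 11.8 ± 2.18 in the libraries labelled Srsf1-cKO and 7.11 ± 1.54 in WT (SD, n = 3 each; exact permutation p = 0.1, adjusted p = 0.125 over 5 ratios). The 5 ratios were chosen after the counts of the 10 genes had been seen. Tnfsf14, the gene of LIGHT, and Lta, the gene of lymphotoxin alpha, encode other HVEM ligands and did not pass (log2 fold changes 0.38 and -0.19, edgeR adjusted p = 0.222 and 0.778).

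Lag3, whose product resembles CD4 and binds MHC class II, fell. It stood at 34.9, 27.6 and 28.2 CPM in the libraries labelled Srsf1-cKO, against 37.5, 71.0 and 105 CPM in WT. The libraries labelled Srsf1-cKO lay close together, whereas the WT libraries differed by a ratio of 2.81, and WT replicate 1 lay just above the highest library labelled Srsf1-cKO. In FPKM the groups overlapped, with WT replicate 1 at 13.4 and Srsf1-cKO replicate 1 at 13.6. Its log2 fold change was -1.24 (SE 0.32, 95% interval -1.96 to -0.51, edgeR adjusted p = 0.0316). The call held without WT replicate 1 (-1.56, adjusted p = 0.0342) or WT replicate 3 (-0.86, adjusted p = 0.0458). It did not hold without Srsf1-cKO replicate 1, 2 or 3 (adjusted p = 0.0538, 0.116 and 0.0863) or WT replicate 2 (0.0545), with limma-voom (0.0511) or on the FPKM table (log2 fold change -0.99, limma adjusted p = 0.0752).

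The genes beside Lag3 on chromosome 6 in RefSeq, Cd4 and Ptms, had log2 fold changes of -0.25 (SE 0.15, edgeR adjusted p = 0.251) and -0.19 (SE 0.28, adjusted p = 0.663). Among its ligands, H2-Aa of MHC class II, counted here as a marker of dendritic cells, rose and stood at 16.96, 25.0 and 11.5 CPM in the libraries labelled Srsf1-cKO, against 2.10, 5.98 and 1.58 CPM in WT (edgeR adjusted p = 0.0124; it did not pass without Srsf1-cKO replicate 2, 0.0599, or WT replicate 1, 0.0718). Its partner chain gene H2-Ab1 had a log2 fold change of -0.29 (adjusted p = 0.693). Fgl1, the gene of a liver protein that binds LAG-3, had 1 count in all 6 libraries together.

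**Figure D2:**
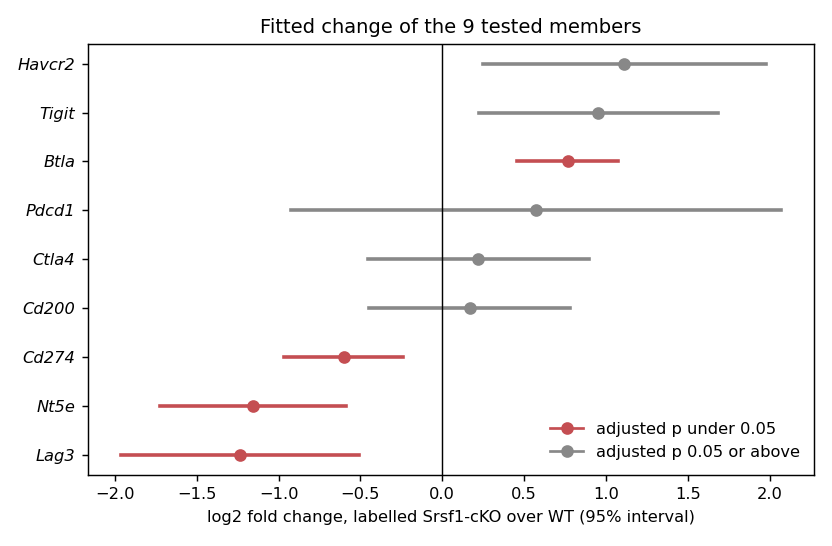
Fitted log2 fold change of the 9 tested genes (points) with 95% intervals (lines), labelled Srsf1-cKO over WT. Btla lies above 0 and Cd274, Nt5e and Lag3 below it among the genes that passed, and the intervals of Ctla4, Cd200 and Pdcd1 cover 0.

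Cd274, the gene of PD-L1, fell, although it remained among the most abundant of the 10 genes. It stood at 368, 268 and 384 CPM in the libraries labelled Srsf1-cKO, against 540, 459 and 549 CPM in WT, with every WT library above every library labelled Srsf1-cKO. Its fitted log2 fold change was -0.60 (SE 0.16, 95% interval -0.97 to -0.24, edgeR adjusted p = 0.0348). The call did not hold without Srsf1-cKO replicate 1 (adjusted p = 0.0620), Srsf1-cKO replicate 2 (0.132) or WT replicate 1 (0.118), nor under library-size scaling (0.0535) or on the FPKM table (log2 fold change -0.51, limma adjusted p = 0.052). Interferon gamma induces PD-L1 in many cells, and its gene Ifng stood at 55.8, 55.7 and 107 CPM in the libraries labelled Srsf1-cKO, against 1.44, 3.90 and 11.1 CPM in WT, so the ligand gene and Ifng differed in opposite directions. Irf1, which encodes a transcription factor of the interferon response, had a log2 fold change of -0.50 and did not pass (edgeR adjusted p = 0.0866).

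The gene of the other PD-1 ligand, Pdcd1lg2, lies next to Cd274 on chromosome 19 in RefSeq and did not pass, at 36.2, 31.7 and 32.9 CPM in the libraries labelled Srsf1-cKO and 23.4, 27.7 and 43.0 CPM in WT (log2 fold change 0.10, SE 0.22, edgeR adjusted p = 0.779). Plgrkt, on its other side, had a log2 fold change of -0.01 (SE 0.13, adjusted p = 0.955). Pdcd1 itself was scarce and uneven. It stood at 4.00, 6.92 and 19.6 CPM in the libraries labelled Srsf1-cKO and at 3.32, 3.77 and 13.7 CPM in WT, so that replicate 3 of each genotype was well above the other libraries of its group. A log2 fold change of 0.57 had a 95% interval from -0.93 to 2.07 (edgeR adjusted p = 0.569), and it ranged from -0.33 without Srsf1-cKO replicate 3 to 1.52 without WT replicate 3, without passing in either (adjusted p = 0.747 and 0.108). The ratio of Cd274 to Pdcd1 in FPKM was 25.2 ± 18.6 in the libraries labelled Srsf1-cKO and 54.5 ± 31.5 in WT (SD, n = 3 each; exact permutation p = 0.3 and adjusted p = 0.3 over 5 ratios), with overlapping groups.

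Nt5e, the gene of CD73, fell. It stood at 7.67, 5.58 and 7.32 CPM in the libraries labelled Srsf1-cKO, against 15.3, 19.4 and 11.3 CPM in WT. All WT libraries were above all libraries labelled Srsf1-cKO, from counts of 50 to 78 in the libraries labelled Srsf1-cKO and 86 to 149 in WT. The log2 fold change was -1.16 (SE 0.25, 95% interval -1.72 to -0.59, edgeR adjusted p = 0.0179; limma on FPKM -0.72, adjusted p = 0.0344). The call did not hold without Srsf1-cKO replicate 2 (adjusted p = 0.0848) or WT replicate 1 (0.0734).

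Among other genes of the adenosine pathway, 2 of 10 tested fell and 2 rose. Adora2a, the gene of the main adenosine receptor of T cells, stood at 41.7, 32.8 and 45.5 CPM in the libraries labelled Srsf1-cKO, against 110, 67.0 and 104 CPM in WT. The groups did not overlap, and the log2 fold change was -1.22 (SE 0.21, edgeR adjusted p = 0.0101). Adora2b, the gene of a receptor with lower affinity for adenosine, rose at a much lower level, with 4.54, 4.35 and 5.82 CPM in the libraries labelled Srsf1-cKO and 1.88, 1.43 and 0.396 CPM in WT (log2 fold change 1.96, SE 0.45, adjusted p = 0.021). Adora2b passed the filter on low counts only through the libraries labelled Srsf1-cKO, in which it was high, which limits this call. With a filter at a mean of 5 CPM it was not tested. Enpp1, an enzyme that can make AMP from ATP, fell (log2 fold change -1.08, SE 0.27, adjusted p = 0.0272), and Adk, the kinase that turns adenosine back into AMP, rose (0.69, SE 0.15, adjusted p = 0.0161).

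Entpd1, the gene of CD39, which makes the AMP that CD73 uses, did not pass, at 8.32, 5.13 and 8.54 CPM in the libraries labelled Srsf1-cKO and 5.20, 7.41 and 5.02 CPM in WT (log2 fold change 0.32, SE 0.29, edgeR adjusted p = 0.449). The ratio of Nt5e to Entpd1 in FPKM was therefore 1.13 ± 0.130 in the libraries labelled Srsf1-cKO and 3.14 ± 0.400 in WT (SD, n = 3 each; exact permutation p = 0.1, adjusted p = 0.125). Without Srsf1-cKO replicate 2 or without WT replicate 1, none of the 4 adenosine genes passed in edgeR (adjusted p of Adora2a at most 0.0547 and of the others at most 0.0993), and without Srsf1-cKO replicate 3, 2 did. Dpp4, whose product binds adenosine deaminase at the cell surface, was the most abundant tested gene of this list and had a log2 fold change of 0.49 (adjusted p = 0.0961).

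Ctla4, the receptor gene with the best known role in helper cells, did not pass. It stood at 295, 177 and 317 CPM in the libraries labelled Srsf1-cKO and at 245, 297 and 135 CPM in WT, with the groups overlapping widely. The log2 fold change of 0.22 had a 95% interval from -0.46 to 0.90 (edgeR adjusted p = 0.63), so a difference of moderate size in either direction was not detectable with these libraries. Its neighbours on chromosome 1 in RefSeq are Cd28 and Icos, the costimulatory receptors of the same family. Cd28 stood at 258, 219 and 281 CPM in the libraries labelled Srsf1-cKO, against 325, 387 and 296 CPM in WT, without overlap and without passing (log2 fold change -0.41, SE 0.15, adjusted p = 0.0841), and Icos had -0.30 (SE 0.26, adjusted p = 0.44).

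CTLA-4 and CD28 share ligands, so their levels were set against each other per length. The ratio of Ctla4 to Cd28 in FPKM was 2.75, 1.94 and 2.68 in the libraries labelled Srsf1-cKO, against 1.79, 1.82 and 1.08 in WT. Every library labelled Srsf1-cKO had a higher ratio than every WT library, by a small margin in Srsf1-cKO replicate 2 (exact permutation p = 0.1, adjusted p = 0.125). Their ligand genes Cd80 and Cd86 were scarce and did not pass, with mean levels of 7.96 and 4.66 CPM in the libraries labelled Srsf1-cKO and 11.2 and 4.56 CPM in WT (edgeR adjusted p = 0.396 and 0.95). Of 11 genes of the surface traffic of CTLA-4 and PD-L1, 1 rose and 0 fell (median log2 fold change 0.22). It was Trat1, the gene of TRIM, an adaptor that brings CTLA-4 to the surface, at 92.1, 88.6 and 79.3 CPM in the libraries labelled Srsf1-cKO and 35.5, 58.1 and 32.6 CPM in WT (log2 fold change 1.04, SE 0.22, edgeR adjusted p = 0.0158). Trat1 did not pass without Srsf1-cKO replicate 2 or WT replicate 1 (adjusted p at most 0.0897), and Arf1, the most abundant gene of this list, did not pass (log2 fold change 0.02).

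Tigit encodes the receptor that competes with CD226. It stood at 24.4, 21.5 and 16.3 CPM in the libraries labelled Srsf1-cKO and at 6.52, 9.24 and 16.5 CPM in WT, so that WT replicate 3 reached the lowest library labelled Srsf1-cKO. The log2 fold change was 0.95 (SE 0.32, 95% interval 0.22 to 1.69) and did not pass in edgeR (adjusted p = 0.0706), while it passed on the FPKM table (1.03, limma adjusted p = 0.047), in DESeq2 (adjusted p = 0.0269) and without WT replicate 3 (1.38, edgeR adjusted p = 0.00946). Cd226 had a log2 fold change of -0.09 (SE 0.22, adjusted p = 0.793), and the ratio of Tigit to Cd226 in FPKM was 2.02, 1.48 and 1.12 in the libraries labelled Srsf1-cKO, against 0.582, 0.720 and 0.847 in WT. The ratio thus lay above 1 in the 3 libraries labelled Srsf1-cKO and below 1 in WT (exact permutation p = 0.1, adjusted p = 0.125). Of their ligand genes, Pvr stood at 143, 106 and 92.6 CPM in the libraries labelled Srsf1-cKO and at 193, 138 and 124 CPM in WT, and neither Pvr nor the scarcer Pvrl2 and Pvrl3 passed (edgeR adjusted p = 0.193, 0.269 and 0.47).

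Regulatory T cells carry CTLA-4, TIGIT and CD73, and Foxp3, the factor that defines them, rose and stood at 23.9, 29.4 and 40.6 CPM in the libraries labelled Srsf1-cKO, against 9.07, 12.9 and 10.2 CPM in WT (log2 fold change 1.55, edgeR adjusted p = 0.00761; it did not pass without WT replicate 1, adjusted p = 0.0532). Of 9 tested genes on the list of regulatory T cell markers, which includes Ctla4, 1 rose and 0 fell. The list's summed level, most of it Il2ra, lay between 5491 and 6452 CPM in the libraries labelled Srsf1-cKO and between 4555 and 5014 CPM in WT. Within the libraries labelled Srsf1-cKO, replicate 3 had the most Foxp3 and the least Tigit. The part of regulatory T cells in the levels of Ctla4, Tigit and Nt5e was not tested.

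Havcr2, the gene of TIM-3, was scarce, at 5.51, 7.92 and 13.7 CPM in the libraries labelled Srsf1-cKO and 3.43, 3.38 and 5.81 CPM in WT. WT replicate 3 lay above the lowest library labelled Srsf1-cKO, and the log2 fold change of 1.11 (SE 0.38, 95% interval 0.25 to 1.98) did not pass (edgeR adjusted p = 0.0724). It passed in DESeq2 (adjusted p = 0.039) and in edgeR without Srsf1-cKO replicate 1 (0.0479) or WT replicate 3 (0.0413), and the log2 fold change was 0.68 without Srsf1-cKO replicate 3. Of the genes of its proposed ligands, Hmgb1, which encodes an abundant chromatin protein, rose and stood at 143, 153 and 227 CPM in the libraries labelled Srsf1-cKO, against 98.3, 102 and 118 CPM in WT (log2 fold change 0.72, SE 0.19, adjusted p = 0.0312). Hmgb1 did not pass without Srsf1-cKO replicate 2, WT replicate 1 or WT replicate 2 (adjusted p at most 0.132), and Lgals9, the gene of galectin-9, did not pass (0.40, adjusted p = 0.167). Ceacam1 did not exceed 1.13 CPM in any library.

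Hmgb1 was the only 1 of 13 tested genes of binding partners that passed, with a median log2 fold change of 0.10 for the 13. The 12 others had adjusted p between 0.143 and 0.95, and besides those already named they were Lgals3 (0.92, adjusted p = 0.143) and Cd200r1. Of the 17 listed, Fgl1, Ceacam1, Cd200r2 and Cd200r4 did not pass the filter on low counts.

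Cd200, a ligand gene, had the highest mean FPKM of the 10 but was above Ctla4 in only 2 of 6 libraries. It did not pass. Cd200 stood at 367, 416 and 326 CPM in the libraries labelled Srsf1-cKO and at 246, 239 and 502 CPM in WT, and WT replicate 3 was higher than all other libraries. Over all libraries the log2 fold change was 0.17 (SE 0.27, 95% interval -0.45 to 0.78, edgeR adjusted p = 0.693), and without WT replicate 3 it was 0.59 and passed (adjusted p = 0.0244). Cd200 is the next gene to Btla on chromosome 16 in RefSeq, where Btla passed and its other neighbour Atg3 did not (log2 fold change -0.15, SE 0.14, adjusted p = 0.45). Cd200r1, the gene of the CD200 receptor, was at most 3.78 CPM in any library (log2 fold change 1.16, SE 0.57, adjusted p = 0.18).

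Of 12 tested genes that neighbour these 10 in RefSeq's order and are not among them, 0 passed in edgeR. Over all tested genes 18.4% passed, and with only 12 neighbours a count of 0 sets them little apart from that. The smallest adjusted p among the 12 was that of Cd28 (0.0841), and Snx14 beside Nt5e had a log2 fold change of 0.51 (SE 0.19, adjusted p = 0.0987).

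**Figure D3:**
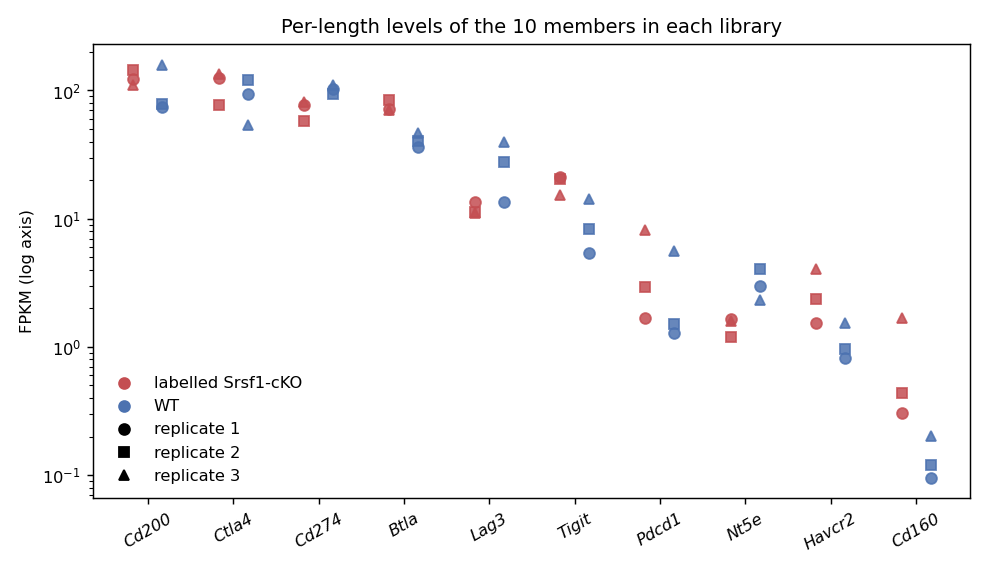
FPKM of each gene in every library on a log axis, ordered by the mean of all 6 libraries, with the libraries labelled Srsf1-cKO left of WT for each gene. Levels span from about 0.0955 FPKM for Cd160 in WT replicate 1 to 159 FPKM for Cd200 in WT replicate 3, and Tigit and Lag3 change places between the groups.

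Levels of different genes were compared per length, in FPKM. By the mean of all 6 libraries the order was Cd200 (115 FPKM), Ctla4 (101), Cd274 (87.6), Btla (58.3), Lag3 (19.5), Tigit (14.2), Pdcd1 (3.53), Nt5e (2.31), Havcr2 (1.87) and Cd160 (0.475). Over the 6 libraries together the ranges of neighbours in this order overlapped in all 9 pairs. Within libraries the order was the same in 6 of 6 for 3 of the pairs, Btla above Lag3, Tigit above Pdcd1 and Havcr2 above Cd160, and it varied between libraries for the other 6 pairs. The lowest level of Cd200, Ctla4 or Cd274 in any library was 53.8 FPKM, and the highest of Pdcd1, Nt5e, Havcr2 or Cd160 was 8.18 FPKM. Cd200, Ctla4 and Cd274 each had the highest level in at least 1 library. The order of some genes differed by genotype: Tigit was above Lag3 in 3 of 3 libraries labelled Srsf1-cKO and in 0 of 3 WT libraries, and Havcr2 was above Nt5e in 2 of 3 and 0 of 3. These pairs were picked after their values had been seen and were not tested.

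The summed FPKM of the 10 genes was 426 ± 20.7 in the libraries labelled Srsf1-cKO and 380 ± 51.0 in WT (SD, n = 3 each; exact permutation p = 0.2), a difference within the spread of WT. Within this sum, Cd274 made up 16.9% ± 2.18 in the libraries labelled Srsf1-cKO and 27.2% ± 3.46 in WT, and Btla 17.8% ± 2.72 and 10.8% ± 0.0689 (SD, n = 3 each; exact permutation p = 0.1 for both, the smallest possible). Ctla4 made up 26.1% ± 6.09 in the libraries labelled Srsf1-cKO and 24.3% ± 10.5 in WT (exact permutation p = 0.8).

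Libraries of a genotype did not vary alike. WT replicate 3 was the highest WT library for 8 of the 10 genes, all except Ctla4 and Nt5e, for which it was the lowest. Srsf1-cKO replicate 3 was the highest of its group for 5 genes, namely Pdcd1, Havcr2, Cd160, Ctla4 and Cd274. The ratio of the highest to the lowest library of a group reached 4.91 in the libraries labelled Srsf1-cKO and 4.14 in WT for Pdcd1, and 5.50 and 2.39 for Cd160, where the median of all tested genes was 1.30 in the libraries labelled Srsf1-cKO and 1.36 in WT. That median was not matched on level, so it is no measure for genes as scarce as these, and Cd160 was not among the tested genes. Among summed markers, those of NK cells (8.92 CPM, most of it Prf1 at 6.57 CPM) and of macrophages (23.8 CPM, most of it Lyz2 at 14.0 CPM) were highest in Srsf1-cKO replicate 3. Those of dendritic cells were lowest of the group there (126, 128 and 106 CPM in replicates 1 to 3), as were those of B cells, and those of CD8 T cells lay between the other libraries of the group (22.8, 16.7 and 21.9 CPM). Their part in the levels of Pdcd1, Havcr2 and Cd160 was not tested.

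**Figure D4:**
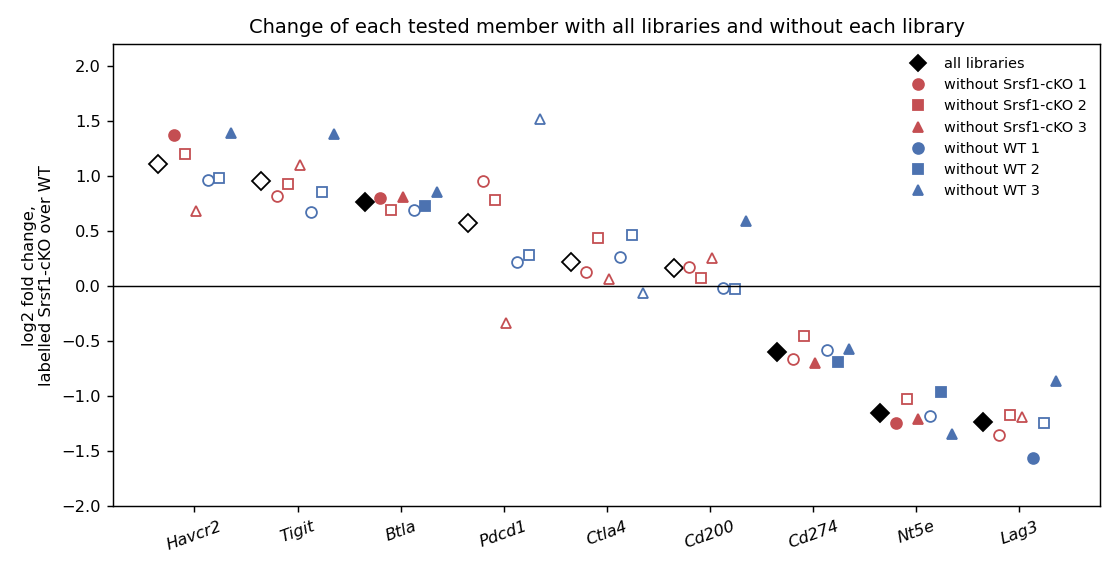
Log2 fold change of each tested gene, labelled Srsf1-cKO over WT, with all 6 libraries (diamonds) and without each library in turn (red, a library labelled Srsf1-cKO left out; blue, a WT library left out). Filled symbols have an edgeR adjusted p under 0.05. Havcr2, Tigit, Btla, Cd274, Nt5e and Lag3 stay on 1 side of 0, while Pdcd1, Ctla4 and Cd200 do not.

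Summed markers of B cells, macrophages, dendritic cells and NK cells were higher in the libraries labelled Srsf1-cKO (exact permutation p = 0.1 for each, the smallest possible), and those of CD8 T cells were lower. Those of macrophages and monocytes lay between 11.99 and 23.8 CPM in the libraries labelled Srsf1-cKO and between 3.17 and 5.46 CPM in WT, with C1qa at 0 counts in all libraries, 5 of 8 genes reaching 1 CPM in any library and 7 of 8 means higher in the libraries labelled Srsf1-cKO. Those of dendritic cells lay between 106 and 128 CPM in the libraries labelled Srsf1-cKO and between 61.1 and 81.8 CPM in WT, most of it Cd74, with Siglech and Clec9a at 0 counts and 3 of 9 means higher in the libraries labelled Srsf1-cKO. Cd74 rose (edgeR adjusted p = 0.0132) and did not pass without Srsf1-cKO replicate 2 (0.0689) or WT replicate 1 (0.0623). Those of NK cells lay between 2.90 and 8.92 CPM in the libraries labelled Srsf1-cKO and between 0.792 and 2.08 CPM in WT, with Ncr1 at 0 counts and 4 of 8 means higher in the libraries labelled Srsf1-cKO. The CD8 T cell sum, nearly all of it Cd8b1, lay between 16.7 and 22.8 CPM in the libraries labelled Srsf1-cKO and between 24.6 and 42.5 CPM in WT. Of its 2 genes, 1 had a higher mean in the libraries labelled Srsf1-cKO, so the lower sum is that of Cd8b1. Cd8a reached at most 1.22 CPM in any library, and markers of red cells at most 0.188 CPM in sum. Myeloid and dendritic cells carry PD-L1 at high levels, and Cd274 was lower in the libraries in which their summed markers were higher; the part of these cells in its level was not tested.

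Among other inhibitory receptor genes, Lilrb4 and Cd96 rose. Of 18 listed, 7 were tested, 2 rose and 0 fell (median log2 fold change 0.17). Lilrb4, which encodes an inhibitory receptor of the leukocyte immunoglobulin-like family, stood at 82.3, 100.2 and 118 CPM in the libraries labelled Srsf1-cKO, against 21.2, 17.7 and 12.7 CPM in WT. The groups were far apart, with a log2 fold change of 2.54 (SE 0.22, edgeR adjusted p = 0.00297), and it passed without each library in turn. Gp49a, a near-identical neighbour, had 403, 390 and 570 counts in the libraries labelled Srsf1-cKO and 149, 85 and 48 in WT, and reads of the pair may be shared.

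Cd96, a receptor for the poliovirus receptor like TIGIT, stood at 37.3, 41.5 and 72.3 CPM in the libraries labelled Srsf1-cKO, against 15.7, 31.3 and 26.0 CPM in WT. Its log2 fold change of 1.05 (SE 0.31, edgeR adjusted p = 0.0463) did not pass without Srsf1-cKO replicate 2 or 3 or WT replicate 1 or 3 (adjusted p at most 0.163). The most abundant of the list, Cd5, had a log2 fold change of -0.25 (adjusted p = 0.324), and 4632428N05Rik, the older symbol of the VISTA gene, had 0.17 (adjusted p = 0.541), so that neither passed. Of the 8 other B7 family ligands only Icosl was tested and did not pass (-1.17, adjusted p = 0.132).

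Of 12 tested costimulatory receptor genes 3 rose and 0 fell (median log2 fold change 0.26). Slamf1, a homophilic receptor, stood at 131, 146 and 225 CPM in the libraries labelled Srsf1-cKO, against 72.0, 77.8 and 99.8 CPM in WT (log2 fold change 1.01, SE 0.22, edgeR adjusted p = 0.0182), and Cd40lg and Crtam were the others. Tnfrsf4, the gene of OX40, had the highest level of these and a log2 fold change of 0.35 (adjusted p = 0.0781). None of the 3 passed without WT replicate 1 (adjusted p at most 0.0921), 1 did without Srsf1-cKO replicate 2, and 5 genes of the list passed without WT replicate 3. Crtam also did not pass without WT replicate 2 (edgeR adjusted p = 0.0510) or with limma-voom (adjusted p = 0.0624).

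Of 17 tested signal effectors that act below inhibitory receptors, 2 fell and 1 rose (median log2 fold change -0.08). Ptpn6, the gene of the phosphatase SHP-1, which BTLA recruits, stood at 90.7, 87.8 and 134 CPM in the libraries labelled Srsf1-cKO, against 190, 176 and 223 CPM in WT. Its groups did not overlap (log2 fold change -0.91, SE 0.19, edgeR adjusted p = 0.0147), whereas Ptpn11, the gene of SHP-2, which PD-1 recruits, had a log2 fold change of 0.03 (SE 0.16, adjusted p = 0.925). Dgka, a kinase that removes diacylglycerol, fell (-1.10) and Cblb, a ubiquitin ligase that restrains activation without CD28, rose (0.54), with adjusted p = 0.0131 and 0.0315. Lck, the kinase gene that was the most abundant of this list, did not pass (-0.15, adjusted p = 0.65). None of the 3 passed without Srsf1-cKO replicate 2 or without WT replicate 1 (adjusted p at most 0.124). Cblb also did not pass without Srsf1-cKO replicate 1 or 3 (edgeR adjusted p = 0.0840 and 0.0570).

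Of 27 transcription factor genes tied to inhibitory receptor genes, 4 fell and 1 rose (median log2 fold change -0.13). Those that fell were Nr4a1, Eomes, Tcf7 and Id3, and Foxp3 rose. Nr4a1, an early gene of receptor signalling whose family promotes inhibitory receptor expression in exhausted T cells, had a log2 fold change of -1.47 (SE 0.25, edgeR adjusted p = 0.00912), while its relatives Nr4a2 and Nr4a3 had 0.51 and 0.58 without passing (adjusted p = 0.462 and 0.107). Tox, a factor of exhausted T cells, stood at 18.7, 23.2 and 51.3 CPM in the libraries labelled Srsf1-cKO and at 30.6, 49.0 and 51.7 CPM in WT (log2 fold change -0.49, SE 0.36, adjusted p = 0.369), Prdm1 and Maf stayed at 5.85 CPM or less, and Irf4, the most abundant, had 0.38 (adjusted p = 0.0643). Without WT replicate 1, 2 of the list passed, and without WT replicate 3, 8 did. Of 8 tested cytokine genes of the last list 4 rose and 0 fell, namely Ifng, Il10, Il21 and Il4. Il2 had the highest level and a log2 fold change of 0.62 (edgeR adjusted p = 0.505), and Il21 did not pass without WT replicate 1 (0.0642). With a filter at a mean of 5 CPM, only 5 genes of this list were tested and 2 rose, which limits these calls.

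**Figure D5:**
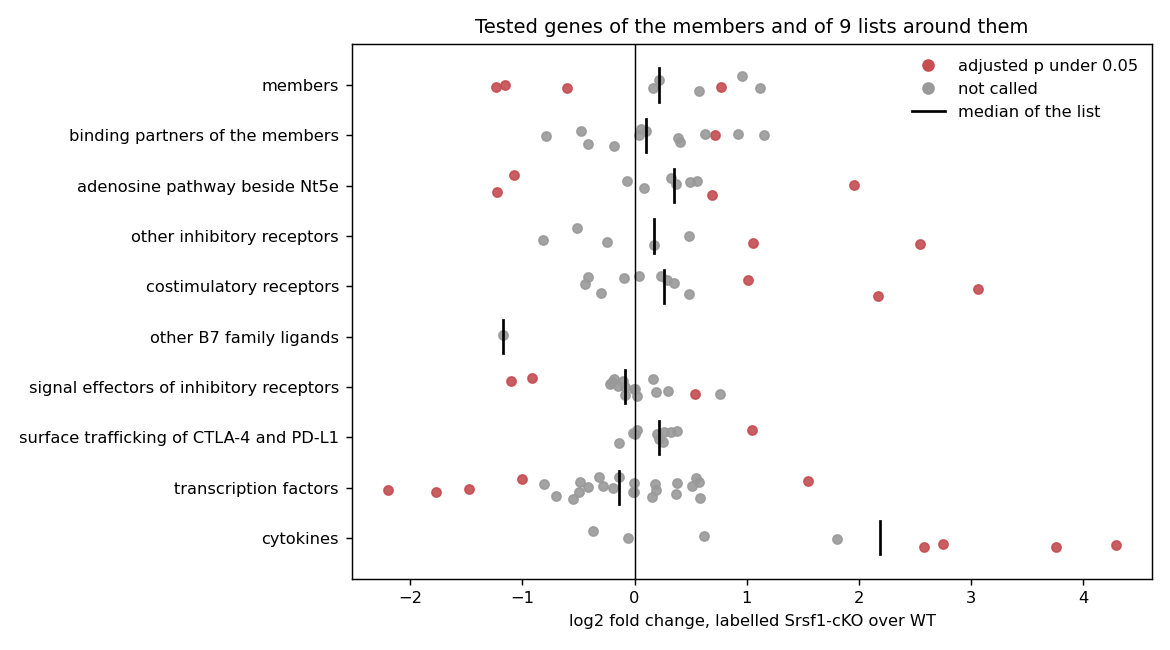
Log2 fold change (labelled Srsf1-cKO over WT) of each tested gene of the 10 and of 9 lists around them, 1 point a gene, red where the edgeR adjusted p is under 0.05 and with the median of each list as a black line. Over the 9 lists 23 of 106 tested genes passed (21.7%, against 18.4% of all tested genes), and changes in both directions stand in the adenosine, signal effector and transcription factor lists.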

How the data were processed

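Whole-number counts per gene were deposited by the authors for all 6 libraries, with no normalization. A second deposited table holds FPKM values, a unit read from the values since its name says counts. Per the submitters' processing notes, STAR, Cufflinks and the mm9 build were used, and the header of a deposited alignment report names STAR 2.4.2a. Annotation, counting program and strand: not given in the sources used here. Uniquely mapped reads numbered 8924098 to 12007130 per library, of 75 bp. Dates stand in place of 27 gene names, and every per-sample column was used.

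The main test was that of edgeR 4.0.16 under R 4.3.3 on counts (filterByExpr, TMM scaling, quasi-likelihood test, two-sided, genotype as the only term, Benjamini-Hochberg adjustment over 10454 genes, threshold 0.05); standard errors are the log2 fold change over the root of its F statistic. CPM values use TMM library sizes. For FPKM, limma 3.58.1 was run with trend on log2(FPKM + 1), keeping genes that reached 1 in 3 or more libraries (18.7% called); this scale understates changes of scarce genes. For single values, permutation tests over libraries were exact and two-sided. They used a log2 scale (CPM + 1, ratios or summed FPKM), except that shares of the sum were tested as percentages. The fits were tested on simulated data. Also run were DESeq2 1.42.0, limma-voom, 3 other scalings (RLE, upper quartile, library size), 2 other filters, a replicate block, each library left out, other thresholds and the FPKM table. Replicates of a group differed beyond sampling noise in every pair (chi-square per degree of freedom 6.25 or more).

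The 10 genes and the lists were chosen with earlier results of these data known. Named are the 10, Srsf1, every binding partner with a row, the called genes of each list and its most abundant tested gene; other genes named, such as neighbours, relatives and markers, were chosen after values were seen. Bat3, Hhla2, Ncr3lg1, Adgre1 and Trac of the lists had no row. Gene order and upstream sequences come from RefSeq on GRCm38.p6, not the mm9 build of the files.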

Additional observations from a re-analysis of the deposited data

How the results depend on the processing

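Of the 9 tested genes, 4 passed edgeR's test. The number was 7 with a filter of only 1 count, where Havcr2, Tigit and Cd160 passed too, 0 at a threshold of 0.01, and between 0 and 7 without each library in turn (0 without Srsf1-cKO replicate 2, 1 without WT replicate 1, 7 without WT replicate 3). Btla, Lag3, Cd274, Nt5e, Havcr2 and Tigit kept the sign of their log2 fold change under every alternative run, and no called gene reversed. Over all genes, 1923 of 10454 passed, with 2972 at a threshold of 0.1 and 279 at 0.01. With a filter of only 1 count 2172 of 15114 passed. Without each library the number lay between 195 and 1989. It was 234 of 10642 without Srsf1-cKO replicate 2, 195 of 10606 without WT replicate 1 and 1978 of 10667 without WT replicate 3. Calls lost without Srsf1-cKO replicate 2 or WT replicate 1 were thus not particular to the genes named here. Of the genes of the 9 lists, 23 passed, 9 at 0.01 and between 6 and 30 without each library. On FPKM, 1801 genes passed, 1146 with no filter, and between 64 and 1852 without each library. The cause of these shifts was not tested. Library-size scaling gave 1268 higher and 709 lower (930 and 993 with TMM), which moved the median over tested genes to 0.11 (log2), against 0.01 with TMM. Srsf1 did not pass under any alternative run (log2 fold change between -0.0047 and 0.16).

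The genotypes share replicate numbers, which the main test did not take as pairs. Deviations of same-numbered libraries correlated at 0.25, 0.01 and 0.29. Differently numbered libraries were not compared in this way, so these values cannot settle whether the numbers mark pairs. With a replicate block 2270 genes and 5 of the 10 passed, Havcr2 among them (edgeR adjusted p = 0.021). Depth limits Cd160, Nt5e, Havcr2 and Pdcd1, with at most 209 counts in any library.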
